A study of Mus musculus with 6 samples.

Results

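The genes described here encode the protein machinery that removes introns from pre-mRNA, in 5 families taken by name: the SR proteins with their relatives Tra2a, Tra2b, Srrm1 and Srrm2, the heterogeneous nuclear ribonucleoproteins (hnRNPs), the SF3 subunits with the U2AF factors, the Snrp proteins of the small nuclear ribonucleoprotein particles (snRNPs), and the Prpf proteins. The name rule matched 76 rows of the deposited table, of which 3 pseudogene rows marked -ps were left out, so that 73 of 54532 genes remained (15 SR proteins, 20 hnRNPs, 12 SF3 and U2AF genes, 13 Snrp genes and 13 Prpf genes). The 6 RNA-seq samples are mouse 3T3 cells, a fibroblast line, labelled as wild-type adipocytes. DMSO, the solvent, was given to 3 of them and 200 µM baicalin to the other 3, baicalin being a flavone glucuronide of Scutellaria roots. The labels state neither a subline, nor how the cells were differentiated, nor how long baicalin was present. Whether the 3 samples of a group are separate cultures is not stated, and p-values therefore cover only the spread among these samples, which may be technical.

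Splicing starts when the U1 snRNP binds the 5′ splice site and U2AF and the SF3-containing U2 snRNP bind the branch site and the 3′ splice site. The tri-snRNP, which contains several Prpf proteins, then joins to form the catalytic spliceosome. SR proteins bind exonic enhancers and mostly favour inclusion of an exon, whereas many hnRNPs bind silencers and favour skipping. Many genes of both families limit their own output by splicing in a poison exon or by retaining an intron, which sends the transcript to nonsense-mediated decay or keeps it in the nucleus. The deposited values are read counts per gene and do not separate such isoforms.

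Total counts lay between 16730594 and 18326874 per library. Replicates differed by more than sampling noise (chi-square per degree of freedom from 2.83 to 4.35 for the pairs within a group), so each was counted as a library of its own. The summed level of 12 fat cell markers was 2223 to 2418 CPM (reads scaled to library size) in DMSO and 945 to 975 CPM in baicalin, and 2 of the 12, Lep and Slc2a4, had under 10 reads in all libraries together. The summed level of 8 fibroblast markers was 14959 to 15541 CPM in DMSO and 11674 to 12053 CPM in baicalin. That of 6 macrophage markers was 24.0 to 26.9 CPM in DMSO and 104 to 105 CPM in baicalin, with Adgre1 and Ptprc under 10 reads. The 4 endothelial markers each had under 10 reads. The part of these markers in the results was not tested, and in such bulk samples fewer cells of a type and less RNA per cell cannot be told apart.

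Of the 73 genes 71 had enough reads to test. In baicalin 27 of them were called higher and 23 lower, and the call was missed by 21. A call is an adjusted p under 0.05 in the quasi-likelihood test of edgeR, with Benjamini-Hochberg adjustment over the 13728 genes tested. Over all genes tested 33.6% were called higher and 34.1% lower (67.7% either way), so the total for the splicing factors (38.0% and 32.4%) lay near the background. Their median log2 fold change was 0.01 and that of all genes 0.00. The groups of libraries did not overlap for 50 of the 71 genes, against a background of 70.2%. SR protein genes were mostly lower (8 of 14 lower, 1 higher, median log2 fold change -0.35) and hnRNP genes were divided (10 of 20 lower, 5 higher, median -0.10). Genes of SF3 and U2AF (8 of 11 higher, 1 lower, median 0.32) and Snrp genes (9 of 13 higher, none lower, median 0.35) were mostly higher, and Prpf genes were divided evenly (4 of 13 higher and 4 lower, median -0.02). These are counts beside the background, and the difference between families was not tested.

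**Figure D1:**
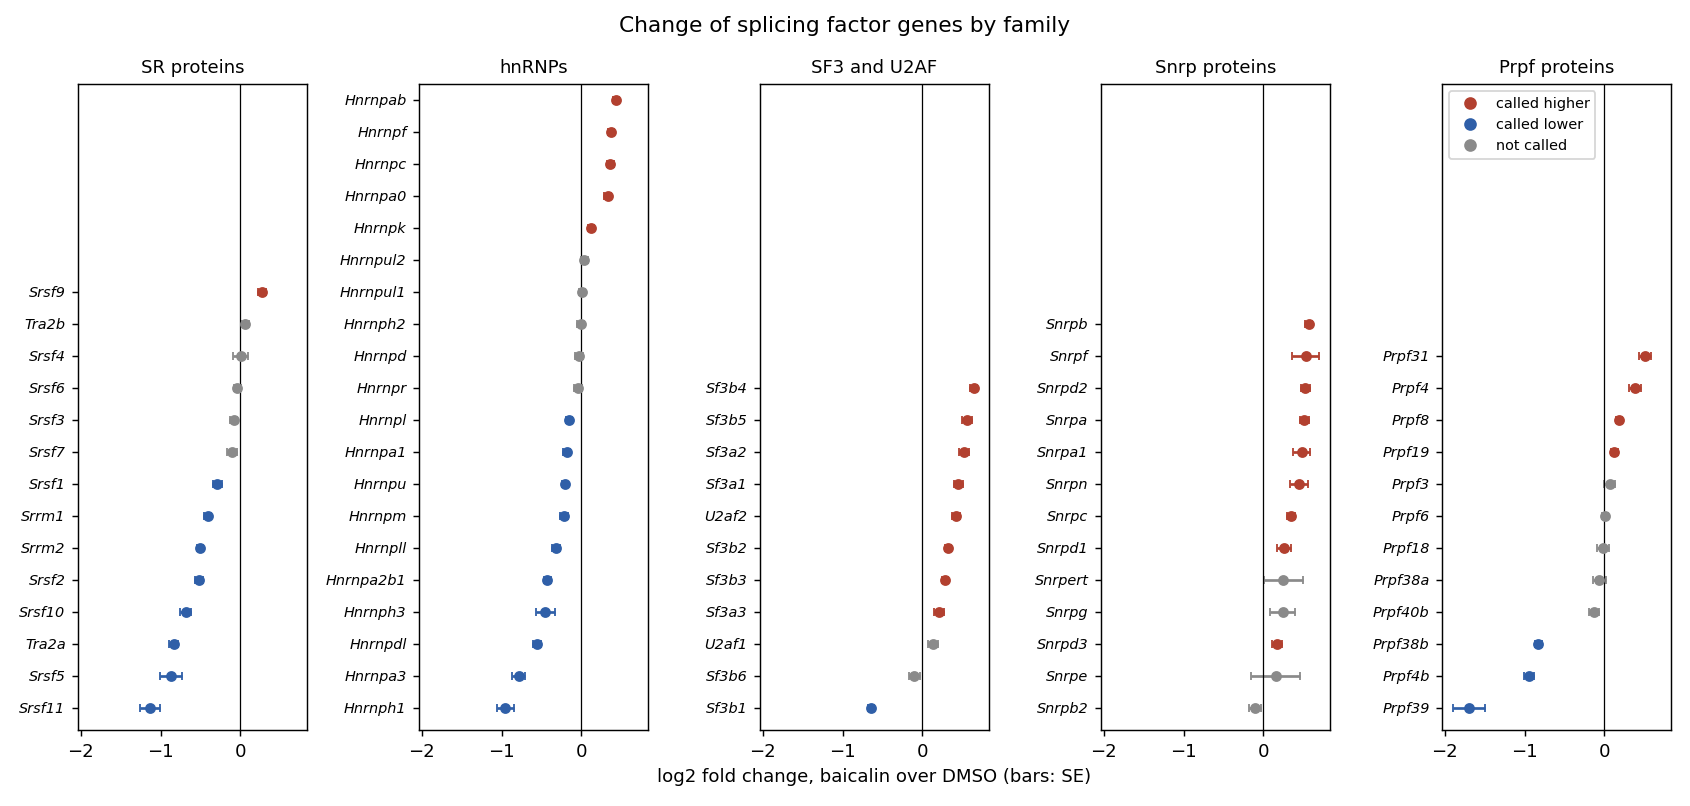
The log2 fold change (baicalin over DMSO, x axis) of 70 of the 71 tested genes, 1 row per gene and 1 panel per family, with bars for the standard error and colours for the call at an adjusted p under 0.05. SR genes extend to the left down to -1.13 for Srsf11, while in SF3 and U2AF the only gene called lower is Sf3b1 at -0.65.

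Summed over its genes, the SR family stood at 2236, 2351 and 2301 CPM with DMSO and at 1553, 1697 and 1692 CPM with baicalin, so every baicalin library lay below every DMSO library. The Snrp family moved the other way, from 424, 417 and 415 CPM to 538, 567 and 537 CPM. For SF3 and U2AF the sums were 1332, 1315 and 1301 CPM in DMSO and 1515, 1443 and 1444 CPM in baicalin. The hnRNP sums, 3455, 3501 and 3390 CPM against 3235, 3387 and 3339 CPM, were lower in every baicalin library. The groups almost touched, at 3390 and 3387 CPM, so the shift was not clear of the spread within groups. On the FPKM scale the hnRNP sums did not show this, with 674.5, 683 and 665 FPKM in DMSO against 680.1, 704 and 699 FPKM in baicalin. Such sums weigh the abundant genes most. On the FPKM scale, which allows levels of different genes to be compared per length, Hnrnpa0 (96.6 ± 4.0 FPKM, SD, n = 3), Sf3b2 (93.2 ± 1.28), Srsf5 (70.3 ± 5.11) and Srrm2 (61.0 ± 2.51) were the most abundant of the 73 in DMSO. Srsf12 had no read, which allows up to 3 reads in a library, and U2af1l4 had 2 to 5 reads per library, and both were left untested.

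The sequence just upstream of the start site is shown for 6 genes, to let those that fell be read beside those that rose: the 3 largest falls and the 3 largest rises among genes with a single start in the RefSeq table (GRCm38.p6, the assembly of mm10), a mean of at least 5 CPM and at most 30 annotated exon bases in the stretch. Each stretch holds the 150 bases before the start, 5′ to 3′, and capitals mark matches on either strand to CCGGAAG (ETS factors), GCGC and TGCGC with any base between them (NRF1), CACGTG (the E-box of MYC and USF) or CCAAT (NF-Y). The first 3 genes fell and the last 3 rose.
Prpf39 (chr12:65036184-65036333, plus strand): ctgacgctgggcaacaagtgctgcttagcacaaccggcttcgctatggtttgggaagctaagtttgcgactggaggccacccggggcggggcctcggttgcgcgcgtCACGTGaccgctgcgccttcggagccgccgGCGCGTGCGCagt
Tra2a (chr6:49264053-49264202, minus strand): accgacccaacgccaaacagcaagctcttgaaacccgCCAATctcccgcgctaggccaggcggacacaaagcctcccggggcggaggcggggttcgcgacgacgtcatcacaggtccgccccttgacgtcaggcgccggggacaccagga
Prpf38b (chr3:108911730-108911879, minus strand): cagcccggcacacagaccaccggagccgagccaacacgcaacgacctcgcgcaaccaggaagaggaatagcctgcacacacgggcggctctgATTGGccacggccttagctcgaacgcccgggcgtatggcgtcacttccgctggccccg
Hnrnpab (chr11:51606882-51607031, minus strand): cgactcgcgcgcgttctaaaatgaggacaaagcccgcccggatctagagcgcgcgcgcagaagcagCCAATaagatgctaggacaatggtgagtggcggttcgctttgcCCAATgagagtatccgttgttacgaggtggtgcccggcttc
Prpf4 (chr4:62408633-62408782, plus strand): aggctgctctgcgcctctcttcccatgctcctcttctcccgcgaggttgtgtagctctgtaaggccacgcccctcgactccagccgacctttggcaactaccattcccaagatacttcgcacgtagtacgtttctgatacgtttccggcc
Hnrnpc (chr14:52104022-52104171, minus strand): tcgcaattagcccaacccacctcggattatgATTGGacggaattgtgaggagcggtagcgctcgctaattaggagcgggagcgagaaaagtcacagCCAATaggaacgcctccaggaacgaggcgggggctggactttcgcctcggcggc
In windows from 250 bases before to 50 after a start, NRF1 matches were found in 21.2% of the 85 windows of 63 members, in 9.88% of the 12452 windows of tested genes and in 4.60% of all 32851 windows. ETS matches were found in 29.4% of member windows, 17.5% of windows of tested genes and 8.86% of all windows. CCAAT stood in 47.1%, 38.4% and 37.4%, and CACGTG in 12.9%, 9.83% and 7.15%. The core elements of NRF2, TGACNNNGC, and of the aryl hydrocarbon receptor, GCGTG, were in 16.5% and 63.5% of member windows, against 14.3% and 50.4% of windows of tested genes and 12.4% and 32.4% of all windows. Between genes called lower and higher, NRF1 matches stood in 7 of 28 and 4 of 31 windows and ETS matches in 4 of 28 and 11 of 31. For CCAAT these were 14 of 28 and 16 of 31, and for CACGTG 3 of 28 and 3 of 31. The NRF2 core stood in 2 of 28 and 5 of 31, and GCGTG in 21 of 28 and 17 of 31. GCGTG can lie inside an NRF1 match, windows of a gene may overlap, and a match is a description of letters, not of binding.

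Of the 14 SR genes tested 8 were lower. Srsf11, a regulatory SR protein that contacts U2AF, (chr3:158010473-158036639, mm10) was at 229, 240.4 and 226 CPM in DMSO and at 89.6, 122 and 106 CPM with baicalin, which is 2.19-fold lower (log2 fold change -1.13, SE 0.12, edgeR adjusted p = 0.000912). All baicalin libraries lay below all DMSO libraries, and the first baicalin library was the lowest. Srsf5, which binds exonic enhancers, was at 267, 302 and 266 CPM in DMSO and at 126, 167 and 165 CPM in baicalin (1.83-fold lower, log2 fold change -0.87, SE 0.14, adjusted p = 0.00509). Its groups were equally separate. Tra2a, a Transformer-2 protein that binds purine-rich enhancers, fell from 114, 117 and 107 CPM to 56.8, 68.8 and 63.3 CPM (1.79-fold, log2 fold change -0.84, SE 0.05, adjusted p = 7.96e-17), whereas its paralog Tra2b, with 70.1, 64.8 and 63.2 CPM against 63.4, 70.6 and 72.2 CPM, was not called (log2 fold change 0.06, adjusted p = 0.34). When trends of the counts on exon length and GC content were first removed from each library (called trends removed from here on), Tra2b was called higher at 0.56, while Tra2a remained lower at -0.65. The removal overshot for length. Over all genes tested the Pearson r of the log2 fold change with log2 exon length changed sign, from -0.09 before it to 0.10 after. Longer genes thus tended slightly to higher values in that fit, which bears on calls such as that of Tra2b.

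Further falls in the family were those of the splicing repressor gene Srsf10 (1.61-fold), of Srsf2 (1.43-fold), a nuclear SR protein that does not shuttle, and of Srrm2 and Srrm1, large coactivators rich in arginine and serine. Srrm2, which organises nuclear speckles, fell from 744, 777 and 812 CPM to 545, 529.6 and 564 CPM (log2 fold change -0.51, SE 0.04, adjusted p = 4.8e-17), with no overlap between the groups. Exons of Srsf2 overlap those of the opposite-strand genes Mettl23 and Mfsd11, which has 105% as many reads and a log2 fold change of 0.01, and the sources used here do not state a strand setting for the counting, so Srsf2 is uncertain. Srsf1, the founding SR protein, was at 89.6, 97.7 and 87.6 CPM in DMSO and 68.3, 80.4 and 76.1 CPM with baicalin (log2 fold change -0.29, SE 0.05, adjusted p = 9.29e-06). That call was lost with the length and GC trends removed, where Srsf1 stood at 0.02 (adjusted p = 0.758). Srsf3, a small SR protein that shuttles and takes part in export, overlapped between the groups (136, 138 and 129 CPM against 122, 134 and 123 CPM, log2 fold change -0.08, adjusted p = 0.089), and it was called higher, at 0.31, with the trends removed, but lower, at -0.21, with library totals alone and, at -0.12, without baicalin replicate 2. Srsf7, the closest relative of Srsf3, was not called either (-0.11, adjusted p = 0.112), nor were Srsf4 (0.00) and Srsf6 (-0.04). The 1 gene called higher was Srsf9, at 65.0, 66.9 and 66.5 CPM in DMSO and 78.1, 82.7 and 78.8 CPM with baicalin (log2 fold change 0.27, SE 0.05, adjusted p = 3.32e-06), and its call was also lost with the trends removed (0.06, adjusted p = 0.245).

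**Figure D2:**
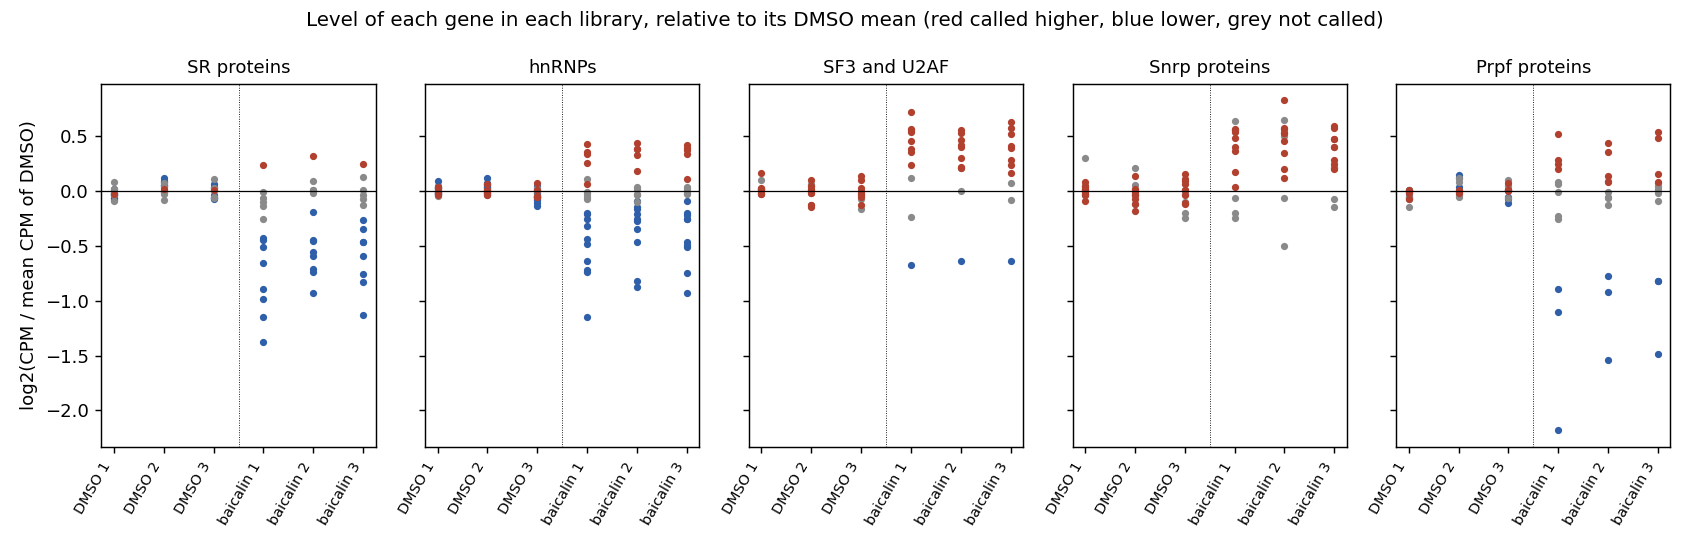
The level of 70 tested genes in each library as log2 of its CPM over its mean CPM in DMSO (y axis), 1 point per gene and library (x axis) and 1 panel per family, coloured by call. The DMSO points lie close to 0, and in the SR and Prpf panels the blue points of the first baicalin library reach lower than those of the other baicalin libraries.

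The hnRNP genes held both directions. The largest fall was that of Hnrnph1, which binds runs of G, from 174, 188 and 158 CPM to 78.5, 98.5 and 91.3 CPM (1.94-fold, log2 fold change -0.96, SE 0.10, adjusted p = 0.000393), whereas its close paralog on the X chromosome, Hnrnph2, had a log2 fold change of -0.01 and was not called. With the trends removed Hnrnph1 stood at -0.46 and Hnrnph2 was called higher at 0.21. Hnrnpdl, a relative of the AU-binding protein Hnrnpd, fell from 120.1, 126 and 119.8 CPM to 74.0, 88.2 and 85.8 CPM (1.47-fold), and Hnrnpd was not called (-0.04, and called higher at 0.30 with the trends removed). Hnrnpa2b1, an RNA-binding protein of splicing and RNA sorting, fell from 372, 389 and 353 CPM to 267, 293 and 269 CPM (log2 fold change -0.43, SE 0.04, adjusted p = 6.13e-13). Hnrnpa1, a repressor of exon inclusion, fell by little but without overlap, from 153, 165 and 151 CPM to 137, 140.3 and 136 CPM (-0.19, SE 0.04, adjusted p = 0.000155). The smaller falls of Hnrnpu (-0.21) and Hnrnpll (-0.32) turned into calls in the other direction with the trends removed (0.32 and 0.22), while those of Hnrnpl (-0.16) and Hnrnpm (-0.22), whose exons overlap the same-strand gene March2 over 1169 bases, and of Hnrnph3 (-0.45) kept their direction there. Hnrnph3 is uncertain, because exons of the opposite-strand gene Rufy2, which has 294% as many reads and fell by 1.08 on the log2 scale, overlap its exons over 115 bases.

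Hnrnpa3 is reported as uncertain for another reason. Its own row fell from 35.0, 32.6 and 31.1 CPM to 19.7, 17.9 and 19.6 CPM (log2 fold change -0.79, SE 0.08, adjusted p = 7.37e-13). The annotation holds 27 other genes with a transcript at least 95% identical to it over at least 200 bases, and 17 of them carry reads, in total 372% as many as Hnrnpa3 itself. These copies summed to 91.8 ± 4.58 CPM in DMSO and 103 ± 6.57 CPM in baicalin (SD, n = 3 each). Hnrnpa3 and its copies together stood at 125 ± 4.94 and 123 ± 6.27 CPM, a log2 ratio of -0.03, so the fall was not seen in the sum. The sources used here do not state how reads that match several copies were assigned. For Hnrnpa1, whose 8 copies carry 9.38% as many reads, the log2 ratio of gene and copies together was -0.17, close to the gene alone. Copies carried over 5% as many reads in 9 members. Beside Hnrnpa3 and Hnrnpa1 these were Snrpert (364%), Snrpf (35.9%), Snrpe (27.5%), Hnrnpk (14.8%), U2af1 (14.4%), Snrpg (13.5%) and Tra2b (5.61%). Their values are uncertain to that extent. Gene and copies together gave log2 ratios of 0.46 for Snrpf, 0.25 for Snrpg, 0.17 for Hnrnpk and for U2af1, 0.03 for Tra2b and 0.17 for Snrpe with Snrpert.

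Of the hnRNP genes 5 rose. Hnrnpab, a relative of the AU-binding proteins, was at 153, 149.96 and 144 CPM in DMSO and 201, 202 and 199.9 CPM in baicalin (1.35-fold higher, log2 fold change 0.43, SE 0.04, adjusted p = 1.09e-13). Hnrnpf, a G-run binder like Hnrnph1, rose from 141, 150.4 and 138 CPM to 181, 187 and 186 CPM (1.29-fold), and Hnrnpc, which binds uridine tracts of nascent RNA, from 190.02, 189.7 and 192 CPM to 244, 249 and 242 CPM (1.29-fold). In each the groups did not overlap. Hnrnpa0 rose by a log2 fold change of 0.33, which was 0.06 and not called with the trends removed (adjusted p = 0.15). Hnrnpk, a poly(C)-binding protein, was at 355, 348 and 337 CPM in DMSO and 363, 394 and 374 CPM in baicalin (0.12, SE 0.04, adjusted p = 0.0054), and this rise was absent when libraries were scaled by their totals alone (-0.01). The U-related Hnrnpul1 and Hnrnpul2 and Hnrnpr were not called, with log2 fold changes between -0.04 and 0.04. With the trends removed Hnrnpr was called higher, at 0.70.

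Sf3b1 (chr1:54985169-55027481, mm10), the scaffold that clamps the branch site, fell from 323, 324 and 317 CPM to 202, 207 and 206 CPM (1.57-fold lower, log2 fold change -0.65, SE 0.04, adjusted p = 3.11e-21). The libraries within each group lay close together, and the groups were far apart. Other subunits of the same complex rose: Sf3b4 from 79.9, 84.2 and 80.1 CPM to 134, 120.2 and 126 CPM (1.56-fold higher, log2 fold change 0.64, SE 0.05, adjusted p = 2.25e-17), Sf3b5 from 37.1, 30.1 and 32.3 CPM to 48.9, 47.9 and 49.6 CPM (0.56), and Sf3b2 from 302, 295 and 299.5 CPM to 384, 369 and 365 CPM (0.32). Sf3b3 also rose (0.28), while Sf3b6, which touches the branch adenosine, was not called (-0.10, adjusted p = 0.199). All of the SF3a subunits, which bridge SF3b to the rest of the particle, were higher, with log2 fold changes of 0.45 for Sf3a1, 0.52 for Sf3a2 and 0.21 for Sf3a3. Of these, Sf3a2 has exons overlapped by the opposite-strand gene Plekhj1, which has 60.1% as many reads and rose as well (0.38), and the call of Sf3a3 was lost with the trends removed (0.02, adjusted p = 0.789) and with library totals alone (0.08, adjusted p = 0.245). With the trends removed Sf3b1 was still called lower, at -0.19, and Sf3b4, Sf3b5, Sf3b2 and Sf3b3 were still called higher, at 0.36, 0.56, 0.29 and 0.49. The large subunit of the U2 auxiliary factor, U2af2, which reads the polypyrimidine tract, rose from 87.2, 79.3 and 92.4 CPM to 118, 115 and 113 CPM (0.42, SE 0.05, adjusted p = 1.14e-10). The small subunit U2af1, which reads the AG of the 3′ splice site, was at 39.8, 41.6 and 37.7 CPM against 43.3, 45.9 and 41.7 CPM and just missed the threshold (0.14, adjusted p = 0.0517). It was called higher under 7 alternatives, 3 of which leave out a library (the second DMSO library, 0.0295, the first baicalin library, 0.0407, or the third, 0.0264), and stood at -0.12 with the trends removed.

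The count ratio of Sf3b1 to its partner Sf3b2 was 1.07, 1.10 and 1.06 with DMSO and 0.526, 0.560 and 0.565 with baicalin. Such a ratio within a library does not depend on the scaling. It fell by 0.97 on the log2 scale, from a mean of 0.10 ± 0.03 to -0.86 ± 0.06 (SD, n = 3 each). The ratio of Tra2a to Tra2b went from 1.63, 1.80 and 1.69 to 0.896, 0.974 and 0.876. Read counts are not per length, so only the change of such a ratio is read here, not its size. Hnrnph1 to Hnrnph2 went from 1.69, 1.76 and 1.46 to 0.753, 0.913 and 0.877. For the third such pair, Prpf38b to Prpf38a, it went from 7.11, 7.15 and 6.67 to 4.38, 4.11 and 3.88. The 13 pairs reported had no overlap between the groups, each with an exact two-sided permutation p of 0.1 (also after adjustment over the pairs), the smallest that 3 against 3 libraries allow. The pairs were chosen after their values were seen, so these ratios are a description.

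**Figure D3:**
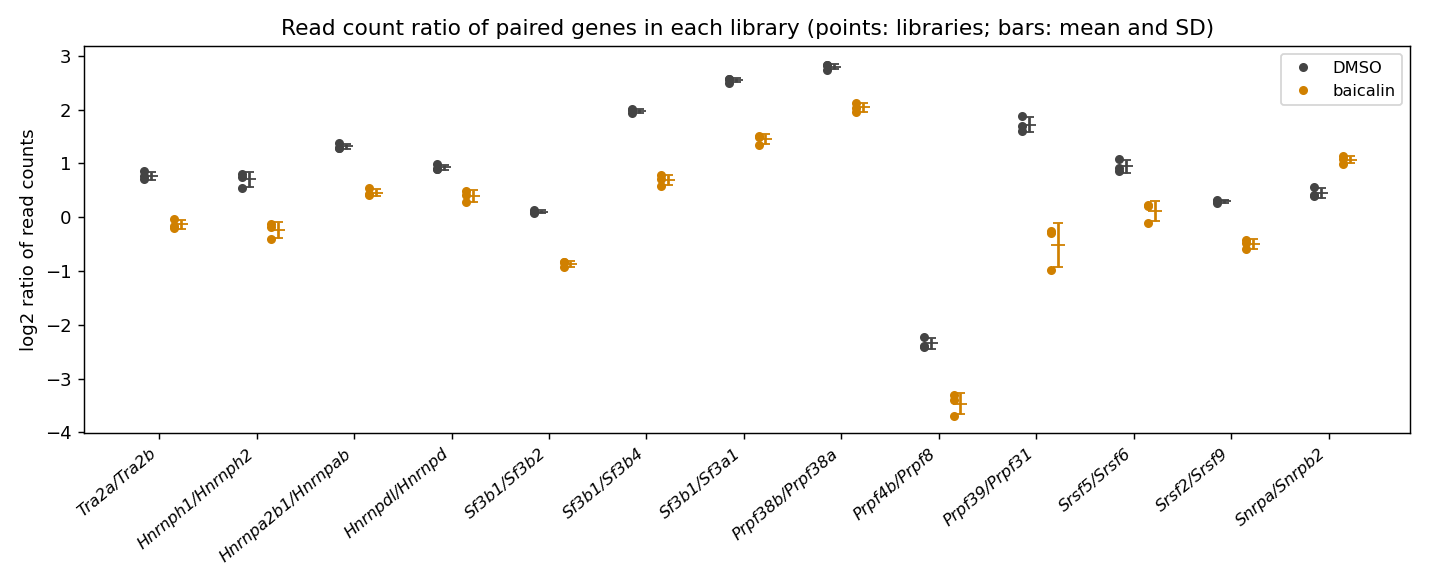
The log2 ratio of read counts (y axis) of 13 gene pairs (x axis) in the 3 DMSO and the 3 baicalin libraries, with points for libraries and bars for the mean and SD. For Sf3b1 over Sf3b2 the DMSO mean is 0.10 and the baicalin mean -0.86, and in none of the pairs do the groups overlap.

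Of the Snrp genes none was called lower. Snrpb, which encodes the Sm protein B of the ring around most spliceosomal snRNAs, rose from 103, 103 and 99.2 CPM to 150.3, 151 and 152 CPM (1.48-fold higher, log2 fold change 0.57, SE 0.04, adjusted p = 6.24e-17), and the libraries of each group lay within 4 CPM of each other. Among the other Sm ring genes Snrpd2 rose from 49.8, 44.4 and 50.2 CPM to 71.01, 69.7 and 66.9 CPM (0.52), Snrpd1 was called higher at 0.26 (not called with library totals alone, 0.13, adjusted p = 0.17) and Snrpd3 at 0.17. The call of Snrpd3 was lost on leaving out DMSO replicate 1, DMSO replicate 2 or baicalin replicate 3 (adjusted p = 0.124, 0.063 and 0.0621), with DESeq2 (0.0696), with the trends removed (0.316), with library totals alone (0.591) and on unfiltered log2 FPKM (0.0725). Exons of Gucd1 on the other strand, with 79.0% as many reads, overlap those of Snrpd3. Snrpf was called (0.53, adjusted p = 0.00541) but overlapped between groups, with 4.77, 4.18 and 5.26 CPM against 4.87, 8.42 and 7.16 CPM, and its call was lost without baicalin replicate 2 (adjusted p = 0.0777) and on log2 FPKM (0.0764 and 0.0758 with the larger and the smaller pseudocount, and 0.123 without a filter). Snrpe was at 14.0, 26.0 and 15.03 CPM with baicalin and missed the call, and Snrpg, at 41.9, 61.9 and 51.1 CPM, was called only without baicalin replicate 1, without the low-count filter, with DESeq2 or with limma-voom. Snrpert, which the annotation lists as a processed pseudogene nearly identical to Snrpe, was not called either (0.25, adjusted p = 0.37), but was called without baicalin replicate 2 (0.54, adjusted p = 0.0079).

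Proteins particular to 1 snRNP rose too. The U1 proteins Snrpa and Snrpc were higher by log2 fold changes of 0.51 and 0.35, with 39.5, 39.7 and 40.1 CPM of Snrpa in DMSO against 55.7, 59.2 and 55.4 CPM in baicalin. Of the U2 pair, Snrpa1 was higher (0.48) and Snrpb2 was not called (-0.11, adjusted p = 0.206). Snrpn, an imprinted relative of Snrpb, was at 10.3, 10.1 and 11.2 CPM in DMSO and 15.3, 15.3 and 12.5 CPM in baicalin (0.45, SE 0.11, adjusted p = 0.000377). Its exons overlap those of the same-strand gene Gm38393, with 22.3% as many reads, so its value is uncertain.

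Prpf39 (chr12:65036333-65063386, mm10), an alternative splicing factor of the U1 snRNP, had the largest change of all 71 genes. It was at 71.1, 81.3 and 67.9 CPM in DMSO and at 16.2, 25.2 and 26.2 CPM in baicalin (3.25-fold lower, log2 fold change -1.70, SE 0.20, adjusted p = 0.0016). Exons of Fkbp3 on the opposite strand overlap those of Prpf39 over 599 bases, and Fkbp3, with 81.0% as many reads, fell as well (-0.62), so the size is uncertain. Prpf4b, a kinase of the tri-snRNP, fell from 70.5, 80.1 and 69.9 CPM to 34.3, 38.9 and 41.6 CPM (1.92-fold, adjusted p = 2.33e-15), and Prpf38b from 149, 152 and 143 CPM to 79.4, 86.6 and 83.4 CPM (1.78-fold, adjusted p = 2.11e-22). On the other side, the U4/U6 proteins Prpf31 (22.0, 22.1 and 22.4 CPM against 31.9, 30.2 and 32.2 CPM, 1.42-fold higher) and Prpf4 (0.38) rose. Prpf8, the largest protein of the catalytic core, rose from 369, 375 and 371 CPM to 443, 409 and 414 CPM (0.18, SE 0.04, adjusted p = 3.79e-05), and Prpf19, a ubiquitin ligase of the spliceosome, by 0.12 (adjusted p = 0.00624). With scaling by library totals alone Prpf8 was not called (0.05) and Prpf19 stood at -0.00. The other tri-snRNP genes Prpf3 and Prpf6 and the step factor Prpf18 were not called (0.07, 0.01 and -0.02), nor were Prpf38a (-0.06) and Prpf40b (-0.13), which was called lower under 6 alternatives.

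Features that the name rule did not use are given for the genes called lower, called higher and not called, without a test. In the GENCODE M21 annotation a transcript marked for nonsense-mediated decay is listed for 19 of the 23 genes called lower (82.6%). It is listed for 7 of the 27 called higher (25.9%), for 11 of the 21 not called (52.4%) and for 29.1% of all protein-coding genes tested. Over all protein-coding genes the shares were 29.95% of those called lower and 27.7% of those called higher. A transcript with a retained intron is listed for 82.6% of the lower, 76.2% of the uncalled and 66.7% of the higher splicing factor genes. Over all protein-coding genes tested it is 59.8%. The lower genes include 8 SR and 10 hnRNP genes, and the higher genes 8 SF3 and U2AF and 9 Snrp genes. Call and family are therefore tied in part. The hnRNP genes (10 lower, 5 higher) and the Prpf genes (4 lower, 4 higher) lie on both sides. The shares above were not split by family. The lower genes have more annotated transcripts than the higher ones (median 10 against 4, with 5 in genes not called). Their merged exons are longer (median 6949 against 3172 bases, with 4810 in genes not called). The GC content of their longest transcript is lower (median 42.1% against 49.8%, with 42.2% in genes not called). The same order held over all protein-coding genes for length (5954 against 3728 bases) and GC (46.7% against 51.9%). Across the 71 genes the log2 fold change correlated with GC at a Pearson r of 0.50 (Spearman rho 0.52). With log2 exon length the Pearson r was -0.47 (rho -0.53). All 13714 genes with both values gave 0.27 (rho 0.31) for GC and -0.09 (rho -0.19) for length. The genes share libraries and base composition, so these are descriptions across genes, which are not independent replicates.

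**Figure D4:**
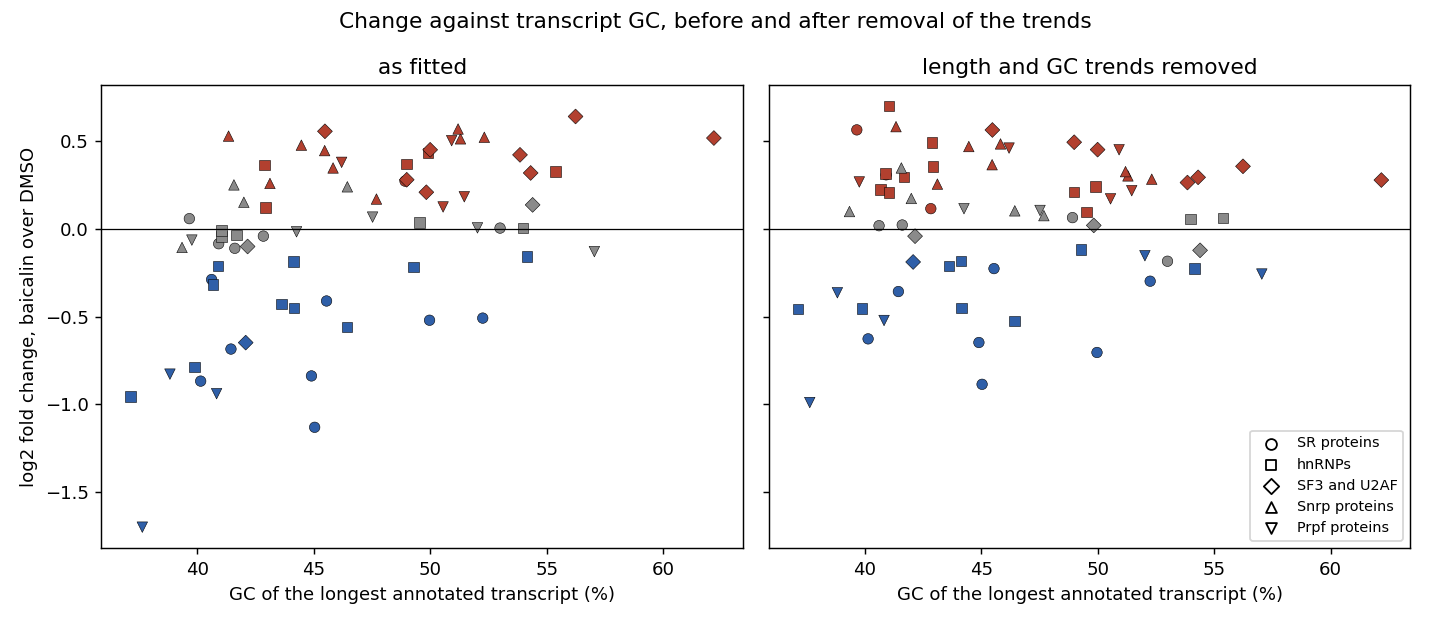
The log2 fold change of 70 of the 71 genes (y axis) against the GC content of their longest annotated transcript (x axis, percent), as fitted on the left and with trends on exon length and GC removed from each library on the right, with symbols for the family and colours for the call. The Pearson r over all 71 falls from 0.50 on the left to 0.11 on the right. A fall is built in, because the trend on GC was subtracted in the fit on the right.

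Removing the trends on exon length and GC from each library left 21 splicing factor genes lower and 34 higher, against 31.5% lower and 32.9% higher over all genes. In that fit the correlation with log2 exon length changed sign over all genes (Pearson r from -0.09 to 0.10). Over the 71 genes it went from -0.47 to -0.16. The SR family then had 7 genes lower and 3 higher (median -0.21), and the hnRNPs 8 lower and 10 higher (median 0.08). SF3 and U2AF kept 7 higher and 1 lower, and the Snrp genes 8 higher and none lower (medians 0.28 and 0.30). Scaling by library totals alone shifted the median of all genes by -0.13 and gave 36 lower and 21 higher splicing factor genes, beside 42.3% lower and 25.3% higher over all genes. Within the SR family 11 genes were then lower and 1 higher, and within the Snrp family 1, Snrpb2, was lower and 7 higher.

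Other genes of splicing, taken from lists by function, were read against the same background of 33.6% higher and 34.1% lower. These genes were not checked for near-identical copies or for exons shared with other genes. Of the kinases and the phosphatase that act on SR proteins, 5 of 8 were lower and 1 higher (median log2 fold change -0.31, and -0.15 with the trends removed). Clk1, a nuclear kinase of SR proteins that is itself regulated by intron retention, fell from 115 ± 4.32 to 34.8 ± 8.46 CPM (SD, n = 3 each, -1.73, SE 0.19, adjusted p = 0.00121), Clk4 by 1.11 on the log2 scale and the cytoplasmic kinase Srpk2 by 0.75. With the trends removed Srpk2 stood at -0.14 and was not called (adjusted p = 0.104). The rise was that of the phosphatase gene Ppm1g (0.60). Among 45 other splicing regulators 26 were lower and 8 higher (median -0.33, and -0.06 with the trends removed). The falls were led by Rbmx (-1.57), Arglu1 (-1.28) and Celf2 (-1.21), and the rises by Rbm10 (0.48), the polypyrimidine tract binding protein Ptbp1 (0.29) and Pcbp1 (0.29, and -0.01 with the trends removed). In the list of nonsense-mediated decay 7 of 12 were lower and 3 higher (median -0.20), with falls of Upf3b (-0.76), Upf2 (-0.58) and the kinase Smg1 (-0.59, and 0.03 with the trends removed) and rises of the cap-binding gene Ncbp1 (0.60), Smg8 (0.32, and 0.15 with the trends removed, adjusted p = 0.0582) and Smg5 (0.21, and 0.08 with library totals alone, adjusted p = 0.192).

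The lists of core and assembly factors leaned the other way or were divided as fitted. With the trends removed each of them had fewer genes called higher. Of 15 genes of snRNP assembly, which load Sm rings onto snRNAs, 9 were higher and 3 lower (median 0.30, and 0.20 with the trends removed). The arginine methyltransferase Prmt5, which modifies Sm proteins, rose from 36.1 ± 1.74 to 65.5 ± 5.92 CPM (SD, n = 3 each), its partner Clns1a by a log2 fold change of 0.69 and Smn1 by 0.72, while the cap hypermethylase Tgs1 (-0.58) and Gemin8 (-0.56) fell. Coil, at -0.24, was at the threshold (adjusted p = 0.0494), and its call was lost with DESeq2 (0.208), with the replicate block (0.0511), in both fits without a filter (0.175 on counts and 0.0699 on log2 FPKM) and on leaving out any 1 library except DMSO replicate 2 (0.0527 to 0.149). Of 39 factors of the Prpf19 complex and of the early and later spliceosome 22 were higher and 6 lower (median 0.19). With the trends removed 15 were higher and 6 lower (median 0.12), beside 32.9% higher and 31.5% lower over all genes. The largest change was the fall of Cwc22, which recruits the exon junction complex, from 494 ± 29.0 to 172 ± 26.7 CPM (-1.52, SE 0.14, adjusted p = 0.000597). Of 20 further U1, tri-snRNP and minor spliceosome proteins 10 were higher and 6 lower (median 0.17). With the trends removed 8 were higher and 6 lower (median 0.03). Usp39 (0.69), the GTPase gene Eftud2 (0.58) and Snrnp40 (0.55) rose, and the U1-associated Luc7l2 (-1.42) and Luc7l3 (-1.12) fell, with Snrnp48 of the minor spliceosome (-0.77). The list of the exon junction complex and export factors had 8 of 19 higher and 6 lower (median 0.06), with Thoc6 (0.72) at one end and Thoc2 (-1.32) at the other. The LSM ring and U6 list had 5 of 12 higher and 3 lower (median -0.09), with Lsm4 (0.73) and Lsm1 (0.38) among the rises and Larp7 (-0.36) and Lsm2 (-0.32) among the falls.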

How the data were processed

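Poly-A RNA was selected from 3 µg of RNA per sample and made into NEBNext Ultra libraries, per the labels' protocols. The authors counted reads per gene with featureCounts 1.5.0-p3 and derived FPKM from those counts and gene length, per the series design text. The submitters' processing notes name mm10. Aligner, annotation and strand setting: not given in the sources used here. The members and lists were chosen with earlier results of these data known.

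Counts of all genes were tested in edgeR 4.0.16 (R 4.3.3; filterByExpr, TMM, robust quasi-likelihood, treatment only) with Benjamini-Hochberg adjustment, the source of each adjusted p unless another tool is given. The biological coefficient of variation was 4.61%. CPM are TMM-scaled. The genes given with values per library are 15 fixed ones and, in each family, up to 3 called members in each direction with the largest change and a mean of at least 5 CPM. Other members are named to account for them, and of the other lists up to 3 genes in each direction. GENCODE M21 gave exons, transcript types and GC. Of 53 other splicing regulators 52 were in the table. Near-identical copies were sought with BLAST+ 2.17.0, for the members only. For 21 tested members exons are shared with a different gene that has reads, above 50% of the member's own for 5. Values of 1 tested Prpf gene and a ratio pair that needs it are not reported here, while counts over families include the gene. The fit was tested on simulated data. The alternatives were DESeq2 1.42.0, limma 3.58.1 (voom, and trend on log2 FPKM with pseudocounts of 1 and 0.1), RLE factors, library totals, other filters, the replicate number as a block, lowess trends on length and GC removed (span 0.3) and leaving out each library.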

Additional observations from a re-analysis of the deposited data

How the results depend on the processing

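Of 70 of the tested genes, 65 to 69 kept their call and direction under each alternative except library totals alone (51) and removal of the length and GC trends (53). Under library totals 5 genes called in at least 1 of both fits changed sign (Hnrnpk -0.0066, Prpf19 -0.0032, Hnrnpul1 -0.12, Hnrnpul2 -0.091 and Prpf6 -0.12), the lower counts were 36 in all, 2 for SF3 and U2AF, 1 for the Snrp genes and 7 for the Prpf genes, and 2 Prpf genes were higher. With the trends removed 10 genes called in at least 1 of both fits changed sign (Hnrnpd 0.30, Hnrnph2 0.21, Hnrnpll 0.22, Hnrnpr 0.70, Hnrnpu 0.32, Prpf38a 0.27, Prpf6 -0.15, Srsf1 0.018, Srsf3 0.31 and Srsf6 0.11), with Pcbp1 at -0.0067 and Smg1 at 0.025 among the other genes, 3 SR genes and 10 hnRNP genes were higher, and the cause was not tested. Genes called in neither fit also changed sign, 3 under library totals (Tra2b, Prpf3 and Srsf4) and 5 with the trends removed (U2af1, Snrpb2, Srsf7, Srsf4 and Prpf18). Leaving out each library gave 26 to 30 higher and 23 to 25 lower genes in all. By family the higher counts were 1 to 2 (SR), 5 (hnRNP), 8 to 9 (SF3 and U2AF), 8 to 10 (Snrp) and 4 (Prpf), and the lower counts 8 to 9, 10, 1 to 2, 0 and 4 to 5. The second SR gene called higher was Tra2b (0.12, adjusted p = 0.0451 without baicalin replicate 1), and the second gene lower in SF3 and U2AF was Sf3b6 (-0.17, adjusted p = 0.0384 without DMSO replicate 3). The replicate numbers did not pair the samples (correlations of same-numbered deviations 0.03, 0.04 and -0.00). With the replicate block 28 genes were higher and 24 lower, U2af1 (adjusted p = 0.048) and Prpf40b (0.0415) being added. Depth limits the genes with few reads, such as Snrpf and Snrpert.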

Other observations

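The first baicalin library held the lowest level within its group for 18 of the 23 splicing factor genes called lower. Over all 71 splicing factor genes tested it did so for 38 (53.5%), against 36.5% of all genes tested. It held the highest level for 14 of the 27 called higher and for 20 of the 71 (28.2%), against 35.1% of all genes. The shares over all genes called lower or higher were not computed. For Prpf39 the 3 baicalin levels were 16.2, 25.2 and 26.2 CPM, for Srsf11 89.6, 122 and 106 CPM, and for Hnrnph1 78.5, 98.5 and 91.3 CPM. Leaving out 1 library at a time moved their log2 fold changes between -1.81 and -1.50, between -1.23 and -1.01, and between -1.02 and -0.86, and all stayed called, with an adjusted p of at most 0.009, 0.00603 and 0.00305.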
